A study of Mus musculus with 15 samples.

Results

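The oligonucleotide probes described here are the 22359 probes of a mouse expression array whose manufacturer names begin with ASMM10AP1B, called AP1B probes below. They were taken as every probe with such a name that the scanner files do not mark as a control. They made up 36.76% of the 60823 probes that were not controls. None of them stands in the table of processed values that the authors deposited beside the scanner output, which has 34099 probes, so every value below comes from the scanner files. The array also holds 27812 probes named LNC1A, 7912 probes named ASMM10P and 2608 probes with other names. Neither the labels nor the file headers used here say what the letters AP1B stand for. The identifier column repeats the probe's own name for all 22359 of them, so the files do not pair an AP1B probe with a gene, and probe sequences were not used here.

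RNA came from the ipsilateral striatum of male mice, with 5 samples in each of 3 groups, and 1 one-colour array was run per sample. The sham group served as the control and was gavaged with water. The ICH group had an intracerebral hemorrhage, which is bleeding into the brain tissue, and was gavaged with water. The BYHWD group had the same injury and was gavaged daily with Buyang Huanwu decoction, a herbal formula of traditional Chinese medicine, at 6.19 g/kg. All tissue was collected on day 14, and the series was made to derive gene signatures of the decoction's action. Strain, age and the way the bleeding was induced are not given in the sources used here. No label says whether the 5 samples of a group are 5 mice, so the p-values measure the spread between samples, which may be technical.

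Each probe on such an array is a short DNA strand fixed to glass that binds the labelled copy of 1 transcript, and its brightness follows how much of that transcript was in the sample. Because each strand binds with its own strength, the same probe can be compared between samples, whereas a brighter probe need not mark a more abundant RNA than a dimmer one. The striatum is a deep forebrain nucleus built mostly of inhibitory projection neurons, and it is a common site of bleeding in the brain. After such a bleed, blood products reach the tissue, neurons die, and microglia, astrocytes and incoming immune cells change their gene expression over the following days and weeks.

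All levels are log2 of the processed signal minus the array's own 75th percentile, so a level of 0 is the brightness of that percentile, and a difference of 1 is a 2-fold difference. The 75th percentile ranged from 261 to 540 signal units over the 15 arrays, and 81.4% to 86.2% of spots per array were well above background by the scanner software's flag. Scan identifiers place the arrays on 3 slides. On slide 1 were all sham arrays together with ICH 2 and ICH 3. The remaining ICH arrays (1, 4 and 5) made up slide 2, and the BYHWD arrays made up slide 3. BYHWD therefore shared a slide with no other group, and treatment and slide cannot be told apart for it. Of 27 cell type markers looked for, 3 had a probe that the files tie to a gene. No striatal neuron marker had a probe, so the tissue label could not be checked against neurons. Mbp, a myelin protein gene, had a level of 8.07 ± 0.16 (SD, n = 5) on sham arrays, 8.27 ± 0.14 on ICH arrays and 8.29 ± 0.16 on BYHWD arrays, and no comparison of it passed. Apoe, an apolipoprotein gene of astrocytes and activated microglia, was 7.48 ± 0.11, 8.43 ± 0.28 and 8.41 ± 0.37 in the same order. It rose in ICH over sham (limma, adjusted p = 0.00825), also on slide 1 (adjusted p = 0.0407). Mzb1, a gene of B and plasma cells, was -3.58 ± 0.12, -2.89 ± 0.4 and -2.94 ± 0.15 and rose in ICH over sham (adjusted p = 0.0266), but did not pass on slide 1 (adjusted p = 0.844). The part of such cells in the AP1B results below was not tested. The level difference between the 3′ and 5′ probes of Gapdh, which grows as RNA is broken or copied incompletely, averaged 0.23 ± 0.15 for sham arrays, 0.61 ± 0.19 for ICH arrays and 0.48 ± 0.1 for BYHWD arrays (SD, n = 5 each). It was larger in ICH than in sham (2-sided exact permutation p = 0.0159, adjusted over 3 comparisons 0.0357) and larger in BYHWD than in sham (exact p = 0.0238, adjusted 0.0357). Its part in the results below was not tested. In tissue RNA, fewer cells of a type and less RNA per cell cannot be told apart.

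Since no AP1B probe is in the deposited table, absence from it could not vary with brightness among them. On 4 or more arrays, 20113 AP1B probes were well above background. At the same level of detection, all 24130 LNC1A probes and all 6437 ASMM10P probes are in that table. Of the 3682 LNC1A probes detected on fewer than 4 arrays, 1230 are in it as well. No label or file header used here gives a reason for the omission.

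The AP1B probes were the brighter of the large probe classes. Their median level was -1.53 over the 15 arrays and ranged from -1.617 to -1.461 between arrays. The median level was -2.344 for LNC1A probes and -2.711 for ASMM10P probes. On 15 of 15 arrays the AP1B median lay above the LNC1A median, by 0.814 ± 0.044 (SD, n = 15; range 0.765 to 0.889). Over the 5 arrays of each group, the AP1B median was -1.562 ± 0.041 (SD) for sham, -1.494 ± 0.035 for ICH and -1.535 ± 0.026 for BYHWD. On this scale the groups lay closer to each other than the AP1B probes lay to the LNC1A probes. The subtracted percentile is each array's own and was taken over spots that include the AP1B probes. The scaling itself therefore draws the group medians together, and their closeness is not a result about the groups. Before scaling, the AP1B median signal ran from 145.7 to 179.7 units on sham arrays. It ran from 93.31 to 157.3 on ICH arrays and from 94.62 to 135.1 on BYHWD arrays.

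Detection was high and similar in the groups. The share of AP1B probes well above background was 88.2% ± 1.14 (SD, n = 5) on sham arrays, 87.65% ± 1.02 on ICH arrays and 87.07% ± 0.7 on BYHWD arrays. A total of 18234 AP1B probes (81.6%) were detected on all 15 arrays, 1740 on 5 to 14, 845 on 1 to 4, and 1540 (6.89%) on none. For comparison, 76% of LNC1A probes were detected on all 15 arrays. Few AP1B probes were detected on all 5 arrays of 1 group and none of another. There were 5 such probes for ICH over sham (0.022% of AP1B probes, against 0.015% of all) and 2 for sham over ICH (0.0089%, against 0.0082%). For BYHWD over ICH there were 5 (0.022%, against 0.023%), and for ICH over BYHWD 6 (0.027%, against 0.038%). For BYHWD over sham there were 7 (0.031%, against 0.038%), and for sham over BYHWD 11 (0.049%, against 0.091%).

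Single AP1B probes spanned a wide range of brightness. Mean levels ran from -7.61 to 9.5 with quartiles of -3.55, -1.54 and 0.75, and 1079 probes lay above a level of 5. No AP1B spot was saturated on any array. The brightest was ASMM10AP1B120200513V4, with a level of 9.38 ± 0.12 (SD, n = 5) for sham, 9.35 ± 0.17 for ICH and 9.77 ± 0.13 for BYHWD. Its difference between BYHWD and ICH was 0.42 ± 0.11 (SE), 1.34-fold, and passed the test (limma, adjusted p = 0.0357). Next to it, ASMM10AP1B100033099V4 had means of 9.47 in sham, 9.34 in ICH and 9.68 in BYHWD, and no comparison of it passed.

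Tests covered the 19916 AP1B probes that were well above background on at least 5 arrays and had no outlying value left out. They were fitted together with all other probes, 51669 in all, and p-values were adjusted over that whole number. Of the 2443 AP1B probes not tested, 2385 were detected on fewer than 5 arrays and 58 had a value left out. Of the AP1B probes called in the comparisons below, 1 for ICH against sham, 2 for BYHWD against ICH and 1 for BYHWD against sham were well above background in 1 group only, and so could enter only through that group. Probes detected in more groups can also need 1 group to pass the filter, and these were not counted. At the edge of this filter, the 139 probes detected on exactly 4 arrays had a median level of -5.55 and the 114 detected on exactly 5 had one of -5.42. The median within-group SD was 0.24 for tested AP1B probes against 0.254 for LNC1A, 0.276 for ASMM10P and 0.253 for all tested probes. Tested probes were also split into 4 equal parts by mean signal. From dimmest to brightest, this SD was 0.34, 0.231, 0.207 and 0.227 for AP1B. For LNC1A it was 0.338, 0.229, 0.211 and 0.253, so AP1B was below LNC1A only in the brighter parts. Over all tested AP1B probes the sham arrays gave a median SD of 0.219, the ICH arrays 0.251 and the BYHWD arrays 0.188. A range of at least 2-fold over the 15 arrays was seen for 9683 AP1B probes (48.6%, against 52.8% of all tested probes), and one of at least 16-fold for 139 (0.7%, against 0.52%).

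The leading axis of variation over the AP1B probes separated the ICH arrays by slide. This first principal component held 33.8% of their variance. Sham arrays scored -45.8 to -24.7 on it, and the ICH arrays of slide 1 scored -17.1 and -11.1. The ICH arrays of slide 2 scored 47.9 to 54.1, and the BYHWD arrays fell between, at -1.8 to 16.7. Arrays of the ICH group were thus farther from each other on this axis than the slide 1 ICH arrays were from the nearest sham array. For that reason the comparisons that involve ICH are also given by slide of the ICH arrays. This split was not particular to AP1B probes. Over all tested probes the first component held 35.4% of the variance. On it the slide 2 ICH arrays scored 84.3 to 88.9, the slide 1 ICH arrays -37.2 and -31, and the sham arrays -70.4 to -34.1.

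The comparison of ICH with sham asks which probes the hemorrhage changed by day 14. In ICH, 1208 of 19916 tested AP1B probes passed the test (6.07%), against 5.03% of all 51669 tested probes. Of these, 1051 were higher in ICH (5.28% of tested AP1B probes, against 4.07% of all) and 157 lower (0.788%, against 0.954%). The called share was 4.43% for LNC1A probes and 4.07% for ASMM10P probes. No overlap between the arrays of the groups was seen for 806 of the called AP1B probes (4.05% of tested AP1B probes, against 3.19% of all). The higher AP1B probes had a median difference of 0.80 (1.74-fold) and the lower ones of -0.79. At least 2-fold differences were found for 346 higher and 47 lower probes (together 1.97% of tested AP1B probes, against 1.5% of all). As fitted, background readings included, 69 were at least 4-fold and 20 at least 8-fold higher in ICH. Such counts were not made over all tested probes, so they cannot be read as particular to AP1B. Over all tested AP1B probes the median difference was 0.054, against 0.048 over all tested probes, and it was -0.019 when each array's median was subtracted instead, so its sign depended on the scaling. Leaving out single arrays moved the count of called AP1B probes between 286, without ICH 5, and 3995, without ICH 2. AP1B probes were 38.5% of tested probes and 46.5% of the calls. Their share of the calls was 35.4% with normexp and the 75th percentile, 37.6% with array weights and 38.3% without ICH 2. It was 84.6% without the slide 2 ICH arrays, so the excess depended on the setting. At an unadjusted p under 0.05 (limma), 28.7% of AP1B, 29.2% of LNC1A and 28.5% of all tested probes differed.

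Among those called without overlap, ASMM10AP1B104825097V4 had the largest fitted rise, one that rests on background readings in sham. Its levels were -7.47, -6.4, -7.75, -7.57 and -7.8 in sham 1 to 5, never well above background, and -1.51, -1.07, -1.43, -4.12 and -1.09 in ICH 1 to 5. In BYHWD 1 to 5 they were -3.08, -1.67, -2.61, -4.28 and -2.35. Every ICH and every BYHWD array lay above every sham array, and ICH 4 was the dimmest of the ICH arrays. Since sham gave no level above background, the difference is a lower bound, taken against the dimmest signals well above background on the sham arrays. ICH was at least 12.3-fold higher than sham (limma, adjusted p = 0.000738), with measured means of -1.84 and -7.4. ICH arrays of both slides were well above background, and the sham arrays were not. BYHWD differed from ICH by -0.96 ± 0.55 (SE) and did not pass (adjusted p = 0.268).

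The second probe, ASMM10AP1B100162193V4, was well above background on every array, so its difference is measured and not a bound. Its levels were -3.53, -2.87, -3.68, -3.68 and -2.59 in sham, and -0.48, 2.53, 3.08, 0.61 and 1.64 in ICH. In BYHWD they were -1.35, 2.71, 0.64, 1.28 and 3.21, so no ICH or BYHWD array overlapped the sham arrays, while ICH and BYHWD overlapped each other widely. The difference of ICH from sham was 4.75 ± 0.76 (SE), 26.8-fold (limma, adjusted p = 0.00546). It was 6.07 for the ICH arrays of slide 1 (adjusted p = 0.0239) and 3.86 for those of slide 2 (adjusted p = 0.00127).

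The largest falls among called probes without overlap behaved differently by slide. ASMM10AP1B100084237V4 had levels of 2.96, 2.69, 2.62, 2.7 and 2.65 in sham, and -0.23, 2.48, 2.26, -0.34 and -0.77 in ICH. BYHWD levels were 2.3, 1.84, 1.6, 2.25 and 1.76. Its 3 low ICH arrays were those of slide 2, and the slide 1 arrays ICH 2 and ICH 3 sat just under sham. Pooled, the difference was -2.04 ± 0.51 (SE; limma, adjusted p = 0.0355), but it was -0.36 for slide 1 (adjusted p = 0.934) and -3.17 for slide 2. The second, ASMM10AP1B102744380V4, was 3.72 ± 0.11 (SD, n = 5) in sham and 1.39, 3.38, 3.32, 1.65 and 1.03 in ICH 1 to 5. BYHWD arrays lay between 2.72 and 3.42. Its pooled difference was -1.57 ± 0.37 (SE; adjusted p = 0.0306), with -0.37 on slide 1 (adjusted p = 0.859) and -2.37 on slide 2. Of both falls, then, the call rested on the slide 2 arrays.

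By slide, the ICH arrays gave very different counts. The 3 ICH arrays of slide 2, which share no slide with sham, differed from sham in 7038 AP1B probes (35.3%, against 36.5% of all tested probes). Of these, 4203 were higher (21.1%, against 21.4%) and 2835 lower (14.2%, against 15.1%). For these 3 arrays injury and slide cannot be told apart. The 2 ICH arrays of slide 1, scanned beside the sham arrays, differed from sham in 134 AP1B probes (0.673%), against 0.339% of all tested probes. All 134 were higher in ICH (0.333% of all probes) and none was lower (0.00581%), and at an unadjusted p under 0.05, 1550 AP1B probes (7.78%) differed, against 5.91% of all tested probes. The direct comparison of the ICH arrays of slide 2 with those of slide 1 called 4005 AP1B probes (20.1%), where 22% of all probes were called. Among the 1051 probes called higher with all ICH arrays, the median difference was 0.52 on slide 1 and 0.94 on slide 2. Among the 157 called lower it was -0.29 and -1.1, and none of these 157 differed by 2-fold on slide 1, against 94 on slide 2.

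The calls within slide 1 lay mostly on AP1B probes. Of the 175 probes of the whole array called there, 134 (76.6%) were AP1B, although AP1B made up 38.5% of the tested probes. LNC1A gave 34 calls (0.142%) and ASMM10P gave 3 (0.0473%). The gap between the classes was seen at every brightness. When tested probes were split into 4 equal parts by mean signal, the called share of AP1B was 0.664%, 0.593%, 0.785% and 0.643% from dimmest to brightest, and that of LNC1A was 0.202%, 0.0942%, 0.185% and 0.078%. The difference between the classes was not given a test, since probes are not replicates of a condition.

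These 134 probes differed from sham by a fitted 0.72 to 6.15, the upper end resting on background readings in sham, with a median of 1.84 (3.57-fold). At least 2-fold higher were 123 of them (0.618% of tested AP1B probes, against 0.302% of all in either direction). Their mean levels ran from -5.57 to 6.22 with a median of -1.01. Well above background on all 15 arrays were 114 of them. The choice compared the mean levels of the sham arrays with those of ICH 2 and ICH 3. All 15 arrays entered its detection filter and its estimate of the spread. The mean levels of the other arrays were not compared in the choice, but these arrays are not independent of it. They are also set against the same sham arrays. Relative to the sham mean, the median of the 134 probes was 1.45 in ICH 1, 1.14 in ICH 4 and 1.67 in ICH 5. It was 0.63, 1.67, 1.03, 1.14 and 1.68 in BYHWD 1 to 5. In the sham arrays themselves it ran from -0.19 to 0.36. Above every sham array lay 127, 124 and 131 of the 134 probes in ICH 1, 4 and 5, and 89, 134, 123, 129 and 133 in BYHWD 1 to 5. BYHWD 1 was the lowest of these 8 arrays on both measures. Probes above every sham array were not counted over all tested probes, so these counts lack a base. Of all tested probes, 21.4% were called higher in the slide 2 ICH arrays than in sham. BYHWD compared with the ICH arrays of slide 2, whose mean levels the choice did not compare, gave 6 of the 134 higher and 1 lower, with a median difference of -0.15. Of all tested probes, 15.1% were called higher and 12.6% lower in that comparison. The spread in that comparison came from the same fit.

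This count rested on few arrays. Without ICH 3 it was 2 and without ICH 2 it was 6, in each case with the remaining slide 1 array as a lone sample assumed to vary like the other groups. Without sham 1, 2, 3 or 4 it was 4, 32, 5 or 18. With quantile normalization it was 49, of 65 calls over the whole array. It was 22 without the slide 2 ICH arrays and 170 in a fit on slide 1 alone. AP1B probes made up 54.5% of the calls without ICH 2 and 50% without ICH 3, and 68.1% to 86.5% in every other setting run.

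The comparison of BYHWD with ICH asks what the decoction changed in injured tissue. In AP1B, 1146 tested probes passed (5.75%), against 6.13% of all tested probes, a share close to that of the array as a whole. Of the called AP1B probes 547 were higher in BYHWD (2.75% of tested AP1B probes, against 3.62% of all) and 599 lower (3.01%, against 2.51%). Higher calls were thus 47.7% of those for AP1B. Higher calls made up 61.4% of those for LNC1A and 74.4% of those for ASMM10P, and this gap between the classes was not tested. The median difference over all tested AP1B probes was -0.059, against 0.033 for LNC1A and 0.002 for all probes. Under the other scalings and background corrections it was -0.083 to -0.033 for AP1B and 0.003 to 0.028 for LNC1A, so the signs held in these settings. Against the ICH arrays of slide 1 it was -0.047 for AP1B and 0.033 for LNC1A. Against those of slide 2 it was -0.096 and -0.013, so the LNC1A sign changed with the slide. With all ICH arrays, the medians over the 4 parts by signal from dimmest to brightest were -0.002, -0.042, -0.078 and -0.089 for AP1B. For LNC1A they were 0.034, 0.012, 0.005 and 0.104. No overlap between the groups was found for 819 called AP1B probes (4.11% of tested AP1B probes, against 4.47% of all). Most differences were small, with medians of 0.62 and -0.55 among the called. At least 2-fold higher were 68 probes and at least 2-fold lower 27 (together 0.477% of tested AP1B probes, against 0.554% of all).

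Slide 3 held all BYHWD arrays and no other, so these calls belong to treatment and slide together. Against the ICH arrays of slide 1, 1181 AP1B probes were called (5.93%, against 7.17% of all). Of these, 879 were higher (4.41%, against 5.84%) and 302 lower (1.52%, against 1.33%). Against the ICH arrays of slide 2, 5447 were called (27.3%, against 27.7% of all). Here 2663 were higher (13.4%, against 15.1%) and 2784 lower (14%, against 12.6%). With slide as a random block in limma, no AP1B probe passed, and 1148 (5.76%) had an unadjusted p under 0.05, against 6.14% of all tested probes. Within the whole array 1 probe passed in that fit. Leaving out single arrays moved the count between 314, without BYHWD 3, and 2340, without ICH 3.

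One of the probes with the largest fitted rises in BYHWD over ICH without overlap was ASMM10AP1B109495176V4, a dim one. It was never well above background in ICH, with levels of -6.15, -5.75, -5.59, -7.23 and -5.46, and read -4.66, -4.07, -3.96, -3.16 and -4.41 in BYHWD. Sham arrays read -5.01, -4.16, -5.46, -5.22 and -4.91 and overlapped BYHWD and ICH both. BYHWD was at least 2.29-fold higher than ICH (limma, adjusted p = 0.00886; measured means -4.05 and -6.04). Only 4 sham arrays and no ICH array were well above background. The probe thus passed the filter of 5 arrays only with the BYHWD arrays, where it is brightest, so this p-value adds no support. All BYHWD arrays lay above the ICH arrays of both slides. With slide as a random block the call was lost (adjusted p = 0.773), as were those of the other 3 probes named for this comparison.

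The other was ASMM10AP1B100151024V4, well above background on every array, with levels of -3.82, -2.1, -2.08, -3.48 and -3.31 in ICH and -0.99, -1.56, -1.56, -1.26 and -0.8 in BYHWD. Sham levels were -1.85, -1.81, -2.14, -3.8 and -3.09, so the BYHWD arrays lay above all others. The difference from ICH was 1.73 ± 0.4 (SE), 3.31-fold (limma, adjusted p = 0.0262). Against the slide 1 ICH arrays it was 0.86 and did not pass (adjusted p = 0.238), and against those of slide 2 it was 2.3. The call was lost in 10 of 30 alternative settings, 6 of them a single array left out.

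The largest falls in BYHWD among called probes without overlap both concerned dim probes that were brightest in ICH. ASMM10AP1B113876941V4 stayed at background on the sham arrays (-5.83 to -5.45) and the BYHWD arrays (-6.49, -5.07, -6.31, -6.02 and -6.14). In ICH its levels were -4.62, -4.87, -4.62, -3.14 and -4.51, above every other array. ICH was at least 1.73-fold higher than BYHWD (limma, adjusted p = 0.0105) and at least 2.15-fold higher than sham (adjusted p = 0.0255). It entered the test only through the ICH arrays, where it is bright, so it had to differ from the other groups and these p-values add no support. Against the ICH arrays of slide 1 alone, BYHWD did not pass (adjusted p = 0.053). ASMM10AP1B100143656V4 read -3.06, -4.27, -3.53, -3.5 and -3.28 in ICH and -5.28, -4.83, -6.05, -5.08 and -4.42 in BYHWD, where 2 of 5 arrays were well above background. Sham levels of -4.68, -3.73, -4.5, -4.71 and -3.68 overlapped both groups. Its difference between BYHWD and ICH was -1.6 ± 0.3 (SE; adjusted p = 0.0126), with -1.23 against slide 1 (adjusted p = 0.0636) and -1.85 against slide 2.

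Comparing BYHWD with sham shows how far injured and treated tissue lay from control tissue. In AP1B, 3331 tested probes passed (16.7%), against 17.3% of all tested probes. There were 2200 higher in BYHWD (11% of tested AP1B probes, against 12.7% of all) and 1131 lower (5.68%, against 4.62%). The balance of directions depended on the scaling, since subtracting each array's median gave 1686 higher and 1946 lower, and quantile normalization 1721 and 1542. After normexp background correction the split was 1764 and 1648 with quantile normalization and 5554 and 1518 with the 75th percentile subtracted. No overlap was found for 2295 called AP1B probes (11.5% of tested AP1B probes, against 12.4% of all). The called probes had median differences of 0.69 and -0.50. At least 2-fold higher were 469 and at least 2-fold lower 39 (together 2.55% of tested AP1B probes, against 2.69% of all). Without BYHWD 2 the count was 1981. With slide as a random block, 2 AP1B probes passed, of 3 probes on the whole array, and 1627 AP1B probes (8.17%) had an unadjusted p under 0.05, against 8.21% of all tested probes. This comparison shares its sham arrays with that of ICH against sham, so their counts are not independent of each other.

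Among called probes without overlap, the largest fitted rises here were ASMM10AP1B106043952V4 and ASMM10AP1B104825097V4. Both rest on background readings in sham, so neither can be ranked against probes measured in both groups. ASMM10AP1B104825097V4 was at least 6.32-fold higher in BYHWD than in sham (limma, adjusted p = 0.000273), and ASMM10AP1B100162193V4 was 23.7-fold higher, as measured on every array (adjusted p = 0.00172). ASMM10AP1B106043952V4 was never well above background in sham and read -4.09, 0.91, -0.45, -0.79 and -2.2 in BYHWD. In ICH its levels were -0.76, -7.68, -7.63, -4.88 and -1.86, so ICH 2 and ICH 3 were as dim as sham while the ICH arrays of slide 2 were bright. BYHWD was at least 17.6-fold higher than sham (adjusted p = 0.00331). Only 3 ICH arrays and no sham array were well above background. The probe thus passed the filter of 5 arrays only with the BYHWD arrays, where it is bright, so this p-value adds no support. With slide as a random block, neither of the probes at background in sham passed (adjusted p = 0.504 for ASMM10AP1B106043952V4 and 0.182 for ASMM10AP1B104825097V4). ASMM10AP1B106043952V4 was well above background on all 8 arrays of slides 2 and 3 and on none of the 7 of slide 1. This was true of 1 AP1B probe and of 10 probes on the whole array. The reverse pattern was shown by 1 AP1B probe and by 17 probes in all.

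Among called probes without overlap, the largest falls were in bright probes. Called probes with overlap were not ranked. ASMM10AP1B121166627V4 had levels of 6.37, 6.33, 6.18, 6.18 and 6.27 in sham, 5.8, 6.17, 6.01, 6.12 and 5.45 in ICH, and 5.13, 4.87, 4.99, 5.2 and 4.56 in BYHWD. All 5 BYHWD arrays lay below all 10 others. Its difference from sham was -1.31 ± 0.15 (SE; limma, adjusted p = 0.000186) and from ICH -0.96 ± 0.15 (adjusted p = 0.00647). Unlike the falls in ICH, the fall from ICH to BYHWD passed against either slide, by -1.14 for slide 1 (adjusted p = 0.00211) and by -0.84 for slide 2 (adjusted p = 0.00138). With slide as a random block its fall from sham did not pass (adjusted p = 0.19). ASMM10AP1B107017089V4 read 5.51, 5, 5.42, 4.52 and 4.45 in sham, 2.69, 4.76, 4.86, 2.69 and 2.87 in ICH, and 3.65, 3.37, 3.49, 4 and 3.9 in BYHWD. Its difference of BYHWD from sham was -1.3 ± 0.41 (SE; adjusted p = 0.0396). The call was lost in 10 of 27 alternative settings, 8 of them a single array left out, with an adjusted p of 0.755 with slide as a random block. BYHWD lay below the ICH arrays of slide 1 by -1.13 (adjusted p = 0.0178) and above those of slide 2 by 0.93 (adjusted p = 0.00756), so the direction of that difference changed with the slide.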

How the data were processed

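Per the file headers, the scanner files (1 per array) were written by version 11.0.1.1 of Agilent Feature Extraction. The processed signal deposited in them is an intensity that the software corrected for background within each array and did not scale between arrays. Flags (well above background, saturated, outlier, control) were used as given per the file headers. The authors' deposited table holds values in the range of log2 intensities, made by steps not stated in the labels, and its probe names alone were used. Signals were taken to log2, each array's 75th percentile over spots that are not controls was subtracted, outlying spots (0 to 20 AP1B spots per array) were left out, and replicate spots of a probe were averaged. AP1B probes have 1 spot each. A probe was tested if well above background on at least 5 of 15 arrays.

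Groups came from the sample titles. limma 3.58.1 (lmFit and eBayes, R 4.3.3) was fitted to the 3 groups on all 15 arrays, 2-sided, with Benjamini-Hochberg adjustment over 51669 probes and a threshold of 0.05. For values by slide, ICH was split by slide in a fit of 4 groups. Slides were read from scan identifiers. The members, the lists and the rules were chosen with earlier results of these data known. Named are, per comparison, the 2 largest rises and 2 largest falls among called probes without overlap, and the 2 brightest probes. Normexp (offset 50) used the median signal and median background, in place of the mean signal first planned. The limma step was also tested on simulated data with 200 changed probes. The simulated noise was independent between probes and held no slide differences, so it gives no assurance about them. Alternatives covered normalization, background, filters, variance models, blocks, thresholds and each array left out. The number of arrays limits the precision.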

Additional observations from a re-analysis of the deposited data

Results flagged for a closer look

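The named AP1B probes, the AP1B median level and the AP1B share well above background give 45 sets of 5 arrays over the 3 groups, and 4 of them held an array far from the other 4, where chance alone gives about 1 set in 20. The gap to the nearest array, divided by the range, exceeded 0.71 in each. For ASMM10AP1B104825097V4, sham 2 had a level of -6.4 while the other sham arrays lay between -7.8 and -7.47 (ratio 0.766), all of them not well above background. For the same probe, ICH 4 had a level of -4.12 while the other ICH arrays lay between -1.51 and -1.07 (ratio 0.856). For ASMM10AP1B113876941V4, ICH 4 stood above its group instead, at -3.14 against -4.87 to -4.51 (ratio 0.793). For ASMM10AP1B100084237V4, sham 1 had a level of 2.96 against 2.62 to 2.7 (ratio 0.752). The difference of ICH from sham in ASMM10AP1B104825097V4 passed the test in each of the 29 alternatives run for it.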

How the results depend on the processing

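Counts of called AP1B probes moved with many settings. For ICH against sham (1208), normexp with the 75th percentile gave 6884, array weights 5647, only the 2 groups compared 389, slide as a fixed block 134, adjusted p under 0.01 194 and at least 2-fold 393. That normexp setting moved the median difference of all probes from 0.05 to 0.18 for ICH and from 0.02 to 0.16 for BYHWD against sham. Without the ICH arrays of slide 2 the count was 22 and without those of slide 1 it was 6762. Taking the ICH arrays by slide, a choice made after seeing the data, as was leaving out those of slide 1, gave 134 and 7038. This 134 comes from the same fit as slide as a fixed block, so it is not a separate check. For BYHWD against ICH (1146), quantile normalization gave 1721, normexp with quantile 2002, normexp with the 75th percentile 510, array weights 4362, only the 2 groups 581, slide as a random block 0 (correlation 0.361), adjusted p under 0.01 75, at least 2-fold 95, without the ICH arrays of slide 1 5041, and slide 2 alone 5447. For BYHWD against sham (3331), normexp with the 75th percentile gave 7072, array weights 5824, slide as a random block 2, adjusted p under 0.01 1031 and at least 2-fold 508. With the replicate number as a block, the counts were 613, 196 and 2212. Same-numbered samples had residual correlations of -0.34 to 0.09, so the numbers were not taken to pair samples. For ICH of slide 1 against sham, 0.673% of tested AP1B probes were called. All alternatives to it were chosen after seeing the count, and the share was 0.246% with quantile, 0.0603% with normexp and quantile, 1.12% with normexp and the 75th percentile, 0.166% with no filter, 1.06% with detection on all 15 arrays, 1.08% with a variance trend and 1.06% with array weights. The gap in median level between AP1B and LNC1A (0.81) was 0.51 after normexp with the 75th percentile. The cause of these shifts was not tested.

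Leaving out single arrays moved the count for ICH against sham between 286 (without ICH 5) and 3995 (without ICH 2). It was 505, 608, 623, 453 and 658 without sham 1 to 5, and 375, 3819 and 483 without ICH 1, 3 and 4. For BYHWD against ICH it ran from 314 (without BYHWD 3) to 2340 (without ICH 3), with 691 without sham 5, 399, 474 and 488 without ICH 1, 4 and 5, and 426, 355, 757 and 463 without BYHWD 1, 2, 4 and 5. For BYHWD against sham it ran from 1981 (without BYHWD 2) to 3513, for ICH of slide 1 from 0.01% (without ICH 3) to 0.839% (without sham 5), and for the level gap from 0.81 to 0.82.

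For the named probes, 284 of 342 alternative values kept direction and side of the threshold, 58 kept direction and lost the call, and 0 reversed. For ICH against sham, these counts and the numbers of settings list the fixed slide block and the slide 1 ICH arrays apart, although both are the same fit. ASMM10AP1B100084237V4 and ASMM10AP1B102744380V4 each lost the call in 13 of 30 settings, 8 of them a single array left out, with adjusted p up to 0.934 and 0.859. The 4 probes named for BYHWD against ICH had an adjusted p of 0.773 with slide as a random block. ASMM10AP1B107017089V4 and ASMM10AP1B100151024V4 lost it in 10 of 27 and 10 of 30. A level not well above background is only a bound.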

Other observations

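The names of AP1B probes carry a number between 100000030 and 129905030. Of these numbers, 226 also stand in the name of an LNC1A probe. Probes with neighbouring numbers were compared over the 15 arrays, after each group's mean was removed, as a description with no test. The median correlation was 0.027 over 1480 pairs of tested AP1B probes with consecutive numbers, with 4 pairs over 0.9. It was 0.027 over 7010 pairs next to each other in number order whose numbers were more than 1000 apart, with 22 pairs over 0.9. Over 152 pairs of an AP1B and an LNC1A probe that share a number it was -0.004, with 0 over 0.9. The points of each pair share arrays, slides and scaling.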
